A study of Homo sapiens with 16 samples.

Results

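The mitochondrial ribosomal proteins were followed in A549, a line of non-small cell lung cancer cells of human origin, over 8 samples and 16 libraries. Members were the genes whose symbol starts with MRPL or MRPS and a number. They came to 77 of the 12587 genes in 3 deposited tables, 48 with an MRPL and 29 with an MRPS symbol. Each sample had 1 input library (fragmented total RNA, a measure of the mRNA level) and 1 footprint library (the mRNA stretches that ribosomes shield from RNase I). Footprint divided by input gives a gene's translation efficiency (TE). Values were TPM, in which reads are divided by gene length and brought to a common sum in each library. The first table held 1 control labelled untreated and 2 hybrid clones, sgM16-1 and sgM16-2, from a single guide against the RNA methyltransferase METTL16. The second held the scrambled-hairpin control shscramble rep1 and 1 hairpin knockdown of METTL16, shM16-2. The third held shscramble rep2 and 2 replicates of a hairpin knockdown of the cap-binding protein eIF4E2. The series title concerns METTL16, cytoplasmic eIF4E2 and translation. All samples had fresh medium for 2 h and cycloheximide before harvest. For the guide the series text names an sgNS control, whereas the label of that sample gives untreated, so it is not settled whether the control had a guide. If it had none, guide delivery cannot be told apart from the loss of METTL16 in the clones.

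The mitochondrial ribosome (mitoribosome) makes the few proteins that mitochondrial DNA encodes, all of them parts of oxidative phosphorylation. Its rRNAs come from mitochondrial DNA, while its proteins are encoded in the nucleus, made by cytosolic ribosomes and imported. Some proteins have a bacterial homolog and others occur only in mitochondria. By role, 50 members belong to the large subunit and 26 to the small subunit. MRPS18A and MRPS30 sit in the large subunit despite their names. MRPS36 (RefSeq symbol KGD4) is a component of the 2-oxoglutarate dehydrogenase complex and no structural part of the ribosome. Of the 77 structural genes in the role lists, MRPL53 was not listed in the tables. The members lie on 21 chromosomes. In the RefSeq annotation of GRCh38.p14, 18 overlap another protein-coding gene and 35 have a named pseudogene, so their reads may be shared or split.

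Mitoribosomal genes are nuclear genes with housekeeping promoters, and ETS factors such as GABPA, NRF1 and YY1 are known regulators of nuclear genes for mitochondria. Promoter windows of 250 bases before the annotated start were found for 69 members (RefSeq, GRCh38.p14). They were searched on both strands for 9 spellings. The ETS spelling CCGGAAG occurred in 22 of the 69 windows (31.9%), against 8.82% of all 27305 promoters and 15.9% of the 10110 promoters of listed genes. The NRF1 spelling GCATGCGC occurred in 6 (8.70%, against 2.81% and 4.69%), and the YY1 spelling AAGATGGC in 5 (7.25%, against 1.37% and 1.80%). TATAAA occurred in 3 (4.35%, against 11.1% and 5.57%). A longer NRF1 spelling that contains the shorter occurred in 1 (1.45%, against 1.13% and 1.91%). The shorter ETS spelling CGGAAG, which lies within CCGGAAG, occurred in 32 (46.4%, against 16.8% and 27.9%). The E-box CACGTG occurred in 7 (10.1%, against 6.49% and 9.05%). The GC box GGGCGG occurred in 39 (56.5%), above the 42.3% of all promoters and below the 67.6% of listed genes, and CCAAT in 19 (27.5%), below both (33.0% and 34.96%). A match describes letters and is not a binding site. Shown 5′ to 3′ on the gene's strand are the windows of 4 members whose values are followed below, with the ETS, NRF1 and YY1 spellings of either strand in capitals. They are MRPS34 (chr16:1773135-1773384, minus strand, 3 ETS spellings), MRPL47 (chr3:179604639-179604888, minus strand, 1 YY1 and 1 ETS), MRPL58 (chr17:75012420-75012669, plus strand, 2 ETS) and MRPL12 (chr17:81703117-81703366, plus strand, none of them).
MRPS34: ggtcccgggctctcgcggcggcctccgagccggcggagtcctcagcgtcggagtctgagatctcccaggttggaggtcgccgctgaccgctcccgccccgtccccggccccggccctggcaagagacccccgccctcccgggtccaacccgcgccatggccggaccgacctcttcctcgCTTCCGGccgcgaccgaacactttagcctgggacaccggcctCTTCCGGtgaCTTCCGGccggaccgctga
MRPL47: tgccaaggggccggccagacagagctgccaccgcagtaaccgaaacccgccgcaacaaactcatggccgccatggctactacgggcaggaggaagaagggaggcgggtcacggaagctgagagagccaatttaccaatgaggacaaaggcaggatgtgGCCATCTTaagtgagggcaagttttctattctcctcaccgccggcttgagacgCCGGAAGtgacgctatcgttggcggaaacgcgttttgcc
MRPL58: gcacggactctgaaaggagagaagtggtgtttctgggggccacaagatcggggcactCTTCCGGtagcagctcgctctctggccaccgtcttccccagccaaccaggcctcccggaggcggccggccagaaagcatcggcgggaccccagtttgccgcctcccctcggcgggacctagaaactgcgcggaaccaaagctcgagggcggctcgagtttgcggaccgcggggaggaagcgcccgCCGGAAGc
MRPL12: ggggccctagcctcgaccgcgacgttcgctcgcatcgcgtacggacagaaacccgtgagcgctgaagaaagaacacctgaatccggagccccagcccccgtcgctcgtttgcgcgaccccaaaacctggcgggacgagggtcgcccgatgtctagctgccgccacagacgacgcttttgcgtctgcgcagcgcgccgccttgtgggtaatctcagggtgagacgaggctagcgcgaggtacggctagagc

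Library depth and the targeted genes frame these values. Recovered reads came to 462611 to 699461 per input library and 196995 to 876336 per footprint library. The median member had 26 to 36 reads in an input library and 16 to 85 in a footprint library. METTL16 had 12.8 TPM of input in untreated cells, 6.80 and 6.94 in the clones, 11.1 in shscramble rep1 and 3.50 in shM16-2. EIF4E2 input stood at 21.4 TPM in shscramble rep2 and at 7.69 and 3.57 in its knockdown. The summed input of 6 epithelial markers ranged from 785 to 2458 TPM, and both libraries of the METTL16 hairpin table were lowest (817 in shscramble rep1 and 785 in shM16-2). KRT7 carried this, at 368 and 323 TPM there and 856 to 1378 elsewhere. CDH1 went the other way, with 27.4 and 79.4 TPM there and at most 15.4 elsewhere, and KRT18 (231 and 201 TPM) stood above both guide clones (161 and 195). Of 7 leukocyte, endothelial and fibroblast markers, 6 were not listed in any sample. The other, COL1A1, stood at 1.95 to 7.59 TPM of input in the controls and guide clones, was not listed in shM16-2, and stood at 25.3 and 32.0 in the eIF4E2 knockdown. Where levels of a gene differ here, less RNA per cell and fewer cells that express it cannot be told apart.

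Mitoribosomal mRNAs were of moderate to high abundance, spread over a wide range, and carried more footprints per mRNA than most genes. In the 3 control libraries the median member stood at 32.7 TPM of input (mean over the controls, quartiles 11.3 to 57.4). The highest were MRPL41, a mitochondria-specific protein of the large subunit, at 303 TPM (271 to 330 over the 3 controls), and MRPS12, the homolog of the bacterial decoding-site protein S12, at 296 (175 to 385). MRPS26 followed with 203 TPM (101 to 296), MRPS34 with 184 (147 to 215) and MRPL12 with 139 (110 to 162). Neighbours in this order overlapped in range and are not separated by the spread between controls. The range of MRPL41 did not overlap that of MRPS34 or MRPL12. The lowest were MRPL38 (5.88 TPM, from the 2 controls that list it), MRPS24 (5.77), MRPL46 (4.25), MRPS17 (3.79) and MRPS18C (3.67). The order of the members was much alike between controls, with Spearman correlations of 0.851 (n = 76 members), 0.937 (n = 77) and 0.892 (n = 76) in input. For TE they were 0.287, 0.518 and 0.352 over the same members, so the measured level order was shared more than the measured TE order. TE is a ratio of 2 read counts, and the part of counting error in its lower correlations was not tested. Genes in these correlations share library and depth.

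Bacterial-type proteins of the small subunit formed the lowest group. Their median control input was 11.3 TPM (16 genes), against 39.7 for bacterial-type proteins of the large subunit (30 genes). Mitochondria-specific proteins stood at 33.0 TPM in the large subunit (20 genes) and 27.3 in the small subunit (10 genes). Median TE lay between 0.863 and 1.01 in all 4 groups. Of the landmarks, the L7/L12 stalk and its base (4 genes measured) had a median input of 57.8 TPM and a TE of 0.673. The polypeptide exit and membrane anchor (6 genes) had 40.5 TPM and 0.946, and the decoding site and mRNA channel (4 genes) 43.9 TPM and 0.694.

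In every one of the 8 samples the median TE of the members stood above that of all listed genes. It was 1.26 against 0.752 in the untreated control, 1.11 against 0.626 in sgM16-1 and 0.95 against 0.570 in sgM16-2. In the second table it was 0.968 against 0.534 in shscramble rep1 and 0.560 against 0.277 in shM16-2. In the third it was 0.522 against 0.330 in shscramble rep2, and 0.725 against 0.427 and 0.679 against 0.405 in the eIF4E2 knockdown. Between 60 of 77 members (77.9%, shscramble rep2 and sheIF4E2 rep1) and 67 of 77 (87.0%, sgM16-1) lay above the all-gene median. The members' share of all listed TPM was larger in footprints (0.600% to 1.29%) than in input (0.406% to 0.921%). Both shares were lowest in shM16-2 and next lowest in its control shscramble rep1 (0.905% and 0.589%).

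**Figure D1:**
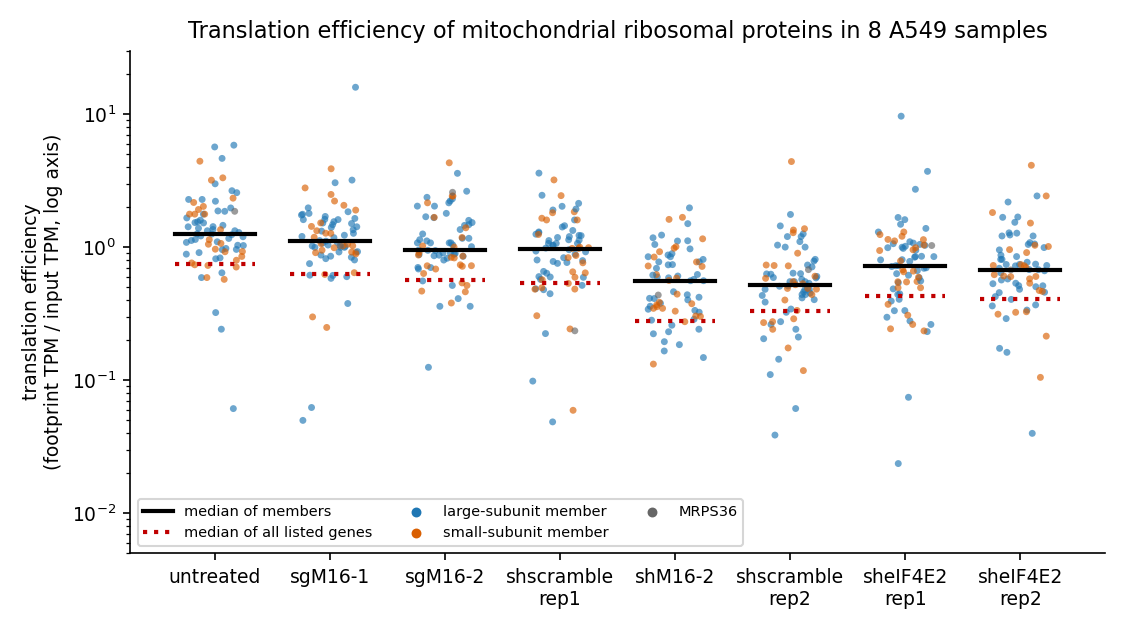
Translation efficiency (footprint TPM over input TPM, log axis) of each member in each of the 8 samples, with large-subunit members in blue, small-subunit members in orange and MRPS36 in grey. The black bar is the median of the members and the red dotted bar that of all listed genes; the black bar is the higher in all 8 samples, and members with 0 footprints (0 to 3 per sample) are not drawn.

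Mitoribosomal genes are short, and TE ran slightly lower with length in these libraries. Spearman correlations were -0.232 to -0.0188 over the genes with at least 20 input reads and a footprint value above 0 (4907 to 6083 per sample). Within the members this correlation ran from -0.0821 to 0.0802 (45 to 56 members per sample). The members' median length was 44.6% to 50.1% of that of all genes. Lengths were inferred from recovered reads and TPM, and a length comes out too short where the reads of a gene share a factor. The share of members above the median TE of the shorter genes ran from 29 of 45 members (64.4%) in shscramble rep1 to 47 of 55 (85.5%) in sgM16-2. Under the same filter the median TE of cytosolic ribosomal proteins and of the members was 0.836 and 1.15 in untreated cells, and 0.310 and 0.441 in shM16-2. The part of gene length in the members' TE was not tested.

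MRPL12 carried few footprints for its mRNA level. It is the homolog of bacterial L7/L12, the stalk that recruits elongation factors. In the RefSeq annotation of GRCh38.p14 it overlaps no other gene and has no named pseudogene. The part of read assignment in its low TE was not tested. Its input stood at 146 TPM in untreated cells, 120 and 170 in the clones, 110 in shscramble rep1, 35.9 in shM16-2, 162 in shscramble rep2, and 150 and 142 in the eIF4E2 knockdown. Its footprints in the same order stood at 8.90, 7.5, 21.2, 10.8, 0, 6.25, 3.54 and 5.64 TPM, from 0 to 8 reads against 22 to 69 in input. Input was thus high in all samples but shM16-2, and footprints were at 8 reads or fewer in all 8. The TE was 0.0611 in untreated cells (exact 95% Clopper-Pearson interval 0.0161 to 0.165), 0.125 in sgM16-2 (0.0519 to 0.260) and 0.0386 in shscramble rep2 (0.00457 to 0.146). In shM16-2 the 0 reads allow a TE of up to 0.0844. Its sequence window, shown above, holds none of the ETS, NRF1 or YY1 spellings. MRPL30, a bacterial-type large-subunit protein with 1 named pseudogene, also had a low TE, at 0.242, 0.0498, 0.359, 0.0485, 0, 0.0612, 0.0743 and 0.173, from 0 to 3 footprint reads. MRPS17 was listed at 0 footprints in 6 of 8 samples, and it has 4 named pseudogenes. At the other end, the TE of MRPL1, which forms the mobile L1 stalk, was 4.65, 15.9, 3.59, 2.14, 1.5, 1.76, 2.73 and 2.19. These rest on 1 to 6 input reads per sample, and the value of 15.9 on 1 (interval 2.66 to 649). The point value was above 1 in all 8 samples, but in 5 of them the interval reached below 1, as in shM16-2 (0.464 to 6.33). MRPL39, a mitochondria-specific large-subunit protein, ranged in TE from 0.531 in sheIF4E2 rep2 to 9.66 in sheIF4E2 rep1 on 2 to 16 input reads. MRPS6, a bacterial-type small-subunit protein that overlaps SLC5A3, was also among the 3 members lowest in control TE, with 0.591, 0.0593 and 0.400 in the 3 controls and 1 to 12 footprint reads over the 8 samples.

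The METTL16 guide clones differed little from untreated cells at these genes. Medians over the 75 of 77 members that passed the filter (a mean of 1 TPM in both assays) were -0.00074 in input (all genes 0.10), -0.24 in footprints (all genes -0.23) and -0.20 in TE (all genes -0.33), all as log2 changes of TPM + 1. No member passed an adjusted p of 0.05 in any of these (limma with Benjamini-Hochberg adjustment over 8505 genes, of which 1, 0 and 0 passed: 0.0118%, 0% and 0%). At an unadjusted p under 0.05 there were 4 members in input (5.33%), 1 in footprints (1.33%) and 5 in TE (6.67%), against 10.8%, 7.11% and 8.57% of all genes. A count model on recovered reads (voom) also called 0 members in each, and 0.047%, 0% and 0% of all genes. In both clones 27 of 75 members stood lower in input (36.0%, all genes 29.6%), 45 in footprints (60.0%, all genes 52.9%) and 34 in TE (45.3%, all genes 55.1%). Higher in both clones were 23 members in input (30.7%, all genes 43.3%), 10 in footprints (13.3%, all genes 18.4%) and 12 in TE (16%, all genes 18%). The p-values measure spread between the clones and not between controls, since each table has 1 control.

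Among single members in the clones, the lowest adjusted p in input belonged to MRPL47, the homolog of bacterial L29 beside the exit of the nascent chain. Its input stood at 9.28 TPM (5 reads) in untreated cells and at 25.4 (16 reads) and 27.3 (15 reads) in the clones. Its footprints stood at 54.3 TPM in untreated cells and 44.4 and 64.6 in the clones. Input was higher in both clones, by 1.41 log2 units (SE 0.33, limma adjusted p = 0.249), while footprints did not differ in a common direction (-0.02, adjusted p = 0.995). The input reads gave a ratio of 2.83 with a wide interval of 1.09 to 9.33. MRPL47 overlaps ACTL6A, and its untreated value was also far under both scrambled controls (42.8 and 46.2 TPM). MRPL45, the anchor of the mitoribosome at the inner membrane, had input of 32.7 TPM in untreated cells and 64.9 and 67.0 in the clones. That is 0.99 log2 units higher in both (SE 0.28, limma adjusted p = 0.327), with footprints of 43.5 against 40.0 and 47.1 TPM. MRPL35, a bacterial-type large-subunit protein, had footprints of 27.0 TPM in untreated cells and 14.4 and 10.5 in the clones. Both clones were lower, by -1.07 log2 units (SE 0.35, limma adjusted p = 0.631), and the read ratio was 0.492 (0.333 to 0.733). MRPS24, the homolog of bacterial S3 at the mRNA entry, had input of 2.91 TPM (3 reads) in untreated cells and 7.49 and 7.61 in the clones, with footprints of 12.9 against 9.54 and 4.10 TPM. Its TE was lower in both clones by -2.05 log2 units (SE 0.71, limma adjusted p = 0.561), and it overlaps a read-through gene, URGCP-MRPS24. MRPS9, a bacterial-type small-subunit protein, had input of 13.8 TPM in untreated cells and 9.49 and 4.07 in the clones. Both were lower, by -1.03 log2 units (SE 0.48, limma adjusted p = 0.487), and the read ratio of 0.503 had an interval of 0.194 to 1.32. Footprints of MRPS18B, the highest change with MRPL2 among members with at least 20 reads, stood at 67.7 TPM in untreated cells and 97.2 and 83.7 in the clones. They were higher in both by 0.41 log2 units (SE 0.26, limma adjusted p = 0.720).

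**Figure D2:**
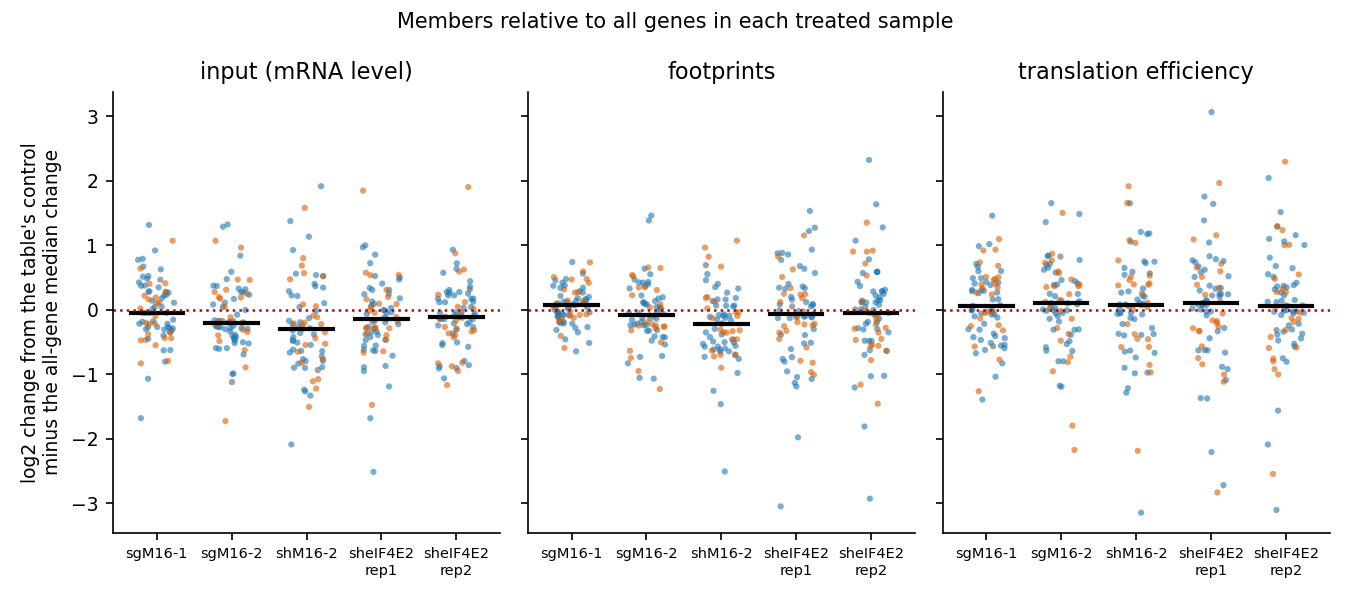
Log2 change of each member from its table's control minus the median change of all genes, in the 5 treated samples, for input, footprints and TE. Blue points are large-subunit and orange points small-subunit members, the black bar is their median and the dotted line at 0 is the all-gene median; the bars run from -0.29 (shM16-2, input) to 0.11 (sheIF4E2 rep1, TE).

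In input, the mitoribosomal mRNAs with the METTL16 hairpin stood lower against their control than most genes did. That control itself stood below the other 2 controls in input at these genes. The median input change of the 73 of 77 members that passed the filter was -0.62 log2 units, against -0.32 over 8168 genes. Of these members 57 were lower than in shscramble rep1 (78.1%, all genes 71.2%), and 50 lay below the all-gene median change (68.5%, all genes 50%). Input was at least 1 log2 unit lower in 19 members (26.0%, all genes 11.9%) and at least 1 higher in 3 (4.11%, all genes 2.5%). The members were more abundant than most genes, with a median input of 27.3 TPM in shscramble rep1 against 9.26 for all listed genes. The input change fell with level over all 8168 genes (Pearson r = -0.188) and over the 73 members (-0.242). The part of level in these values was not tested. Footprints stood lower at nearly every gene (median -1.28 for the members, -1.06 for all genes), with 72 members lower (98.6%, all genes 95.2%). TE followed the other genes, at -0.69 against -0.76, with 63 members lower (86.3%, all genes 84.3%). There was 1 library per arm and assay, so none of these differences has a replicate check or a p-value. The listed genes held 16.1% of the footprint TPM total in shM16-2 and 27.6% in its control, and the part of this in the lower values was not tested.

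Across all 8 samples, after each library's all-gene median was subtracted, shM16-2 had the lowest input for 35 of 73 members (47.9%, all genes 21.9%). It had the lowest footprint value for 27 (37.0%, all genes 16.4%) and the lowest TE for 11 (15.1%, all genes 13.0%). Without shscramble rep1 these counts were 39 (53.4%, all genes 31.1%), 31 (42.5%, all genes 20.7%) and 17 (23.3%, all genes 18.7%). The control shscramble rep1 was lowest for 13 members in input (17.8%, all genes 19.1%). The median member stood at -0.27 log2 units in it relative to all genes when set against untreated cells, and 0.27 higher in shscramble rep2 than in it. Set against shscramble rep2 from the other table, the relative median of shM16-2 was -0.45 in input, against -0.29 with its own control. KRT7 was lowest and CDH1 highest in the same pair of samples, and the part of such differences in these values was not tested.

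**Figure D3:**
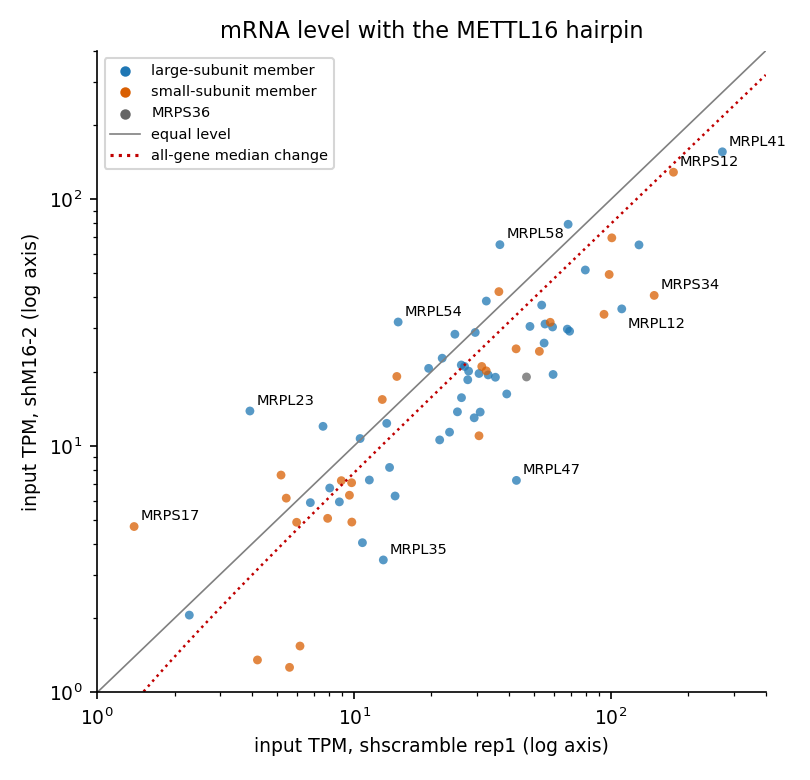
Input TPM of each member in shM16-2 (vertical) against shscramble rep1 (horizontal), both on log axes, with large-subunit members in blue, small-subunit in orange and MRPS36 in grey. The solid line marks equal levels and the dotted line the median change of all genes; 57 of the 73 members that passed the filter lie below the solid line, among them MRPL47, MRPS34, MRPL35 and MRPL12, while MRPL23, MRPL54 and MRPL58 lie above it.

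MRPS34, a mitochondria-specific protein needed for a stable small subunit, was among the most abundant members with a lower level in the hairpin sample. Its input stood at 190 TPM in untreated cells, 113 and 189 in the clones, 147 in shscramble rep1, 40.7 in shM16-2, 215 in shscramble rep2, and 149 and 174 in the eIF4E2 knockdown. The hairpin sample was the lowest of the 8 by a wide margin. Against its control the read ratio was 0.277 (27 and 55 reads, exact 95% interval 0.168 to 0.446). Its footprints went from 72.9 to 37.7 TPM with a ratio of 0.517 (0.346 to 0.773), less than its input did, and TE stood 0.89 log2 units higher. MRPS34 overlaps EME2, and its window holds 3 ETS spellings. MRPL12 input went from 110 to 35.9 TPM, a ratio of 0.326 (0.184 to 0.566). MRPL47 went from 42.8 to 7.24 TPM in input (ratio 0.169, 0.0556 to 0.437) and from 40.0 to 6.14 in footprints (ratio 0.153, 0.0703 to 0.309), so both assays were lower to a like degree. MRPL35 input went from 13.0 to 3.45 TPM (ratio 0.265, 0.0991 to 0.648). MRPL41, the most abundant member, went from 271 to 156 TPM in input (ratio 0.574, 0.387 to 0.852) and from 290 to 92.9 in footprints (ratio 0.321, 0.234 to 0.437). MRPS12 stood at 129 TPM of input in shM16-2 and at 175 in its control, and the other 6 samples gave 289 to 385. MRPS26 stood at 69.7 TPM and 101 in its control, with 193 to 296 in the other 6. For both genes the control was the second lowest of the 8 samples. MRPS36, the dehydrogenase component, had 46.9 TPM of input in shscramble rep1 and 19.0 in shM16-2 (ratio 0.406, 0.209 to 0.774), but the control was the highest of its 8 values. At the other end, footprints of MRPS28 stood at 12.9 and 13.0 TPM (ratio 1.01, 0.528 to 2.01) and those of MRPS5 at 2.98 and 2.73 TPM (ratio 0.915, 0.483 to 1.80). These intervals cover counting error only.

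A few members went the other way in input. MRPL23, which sits at the tunnel exit, stood at 3.93 TPM (4 reads) in shscramble rep1 and at 13.8 (25 reads) in shM16-2, a ratio of 3.52 (1.22 to 13.9). Its footprints went from 14.2 to 2.05 TPM (ratio 0.145, 0.0568 to 0.327), so its TE change of -3.91 was the lowest of all members. In the other 6 samples its input lay between 11.7 and 24.7 TPM, so the control value was the one that stood apart. MRPL54, a mitochondria-specific neighbour of the stalk base, stood at 14.8 and 31.8 TPM (ratio 2.14, 0.774 to 7.34), and its control too was the lowest of the 8 samples. MRPL58, a peptidyl-tRNA hydrolase that frees stalled mitoribosomes and is built into the large subunit, stood at 36.9 and 65.4 TPM (ratio 1.77, 0.953 to 3.50). It was picked after its values were seen, as was MRPL34 below. The other samples gave 78.0 to 158 TPM of MRPL58 input, so here both libraries of the table were low. Its window carries 2 ETS spellings. The 20 measured holders of CCGGAAG had a median input change of -0.69 log2 units with the hairpin and the 45 without it -0.59. For GCATGCGC the medians were -0.85 in 6 holders and -0.61 in the 59 without it. For AAGATGGC they were -0.87 in 5 holders and -0.60 in the 60 without it. These differences were not tested.

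By role, the lower input was spread over both subunits. Relative to all genes the median was -0.40 for bacterial-type large-subunit proteins (21 of 28 below the all-gene median) and -0.35 for bacterial-type small-subunit proteins (12 of 15). It was -0.23 for mitochondria-specific proteins of the large subunit (11 of 19) and -0.07 for those of the small subunit (5 of 10). These counts are read against 50% of all genes below that median, and the counts of lower genes that follow against 71.2%. The exit and anchor genes stood at -0.74, with 5 of 6 lower. The decoding site and mRNA channel stood at -0.28 (4 of 4 lower), but the L7/L12 stalk and its base at 0.12 (2 of 4 lower). Mitochondrial translation factors stood at -0.16 (12 of 14 lower). Mitochondrial transcription and nuclear regulators stood at 0.12 (7 of 10 lower). All 5 mitoribosome subunits without an MRP name were lower in input, PTCD3 by -1.32 log2 units (ratio 0.347, 0.200 to 0.591). Of 25 genes for mitoribosome assembly and rRNA modification 19 were lower, a share near that of all genes, at a relative median of -0.41. Cytosolic ribosomal proteins stood at -0.21, with 77 of 80 lower and 65 of 80 below the all-gene median. The members had 50 of 73 below it, so a place below that median was not particular to them. The 13 mRNAs encoded by mitochondrial DNA, which are translated by mitoribosomes, stood above the all-gene median in 13 of 13 cases in both assays, by 0.49 in input and 1.47 in footprints. Their own median changes were 0.16 in input and 0.41 in footprints, where all genes stood at -0.32 and -1.06.

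**Figure D4:**
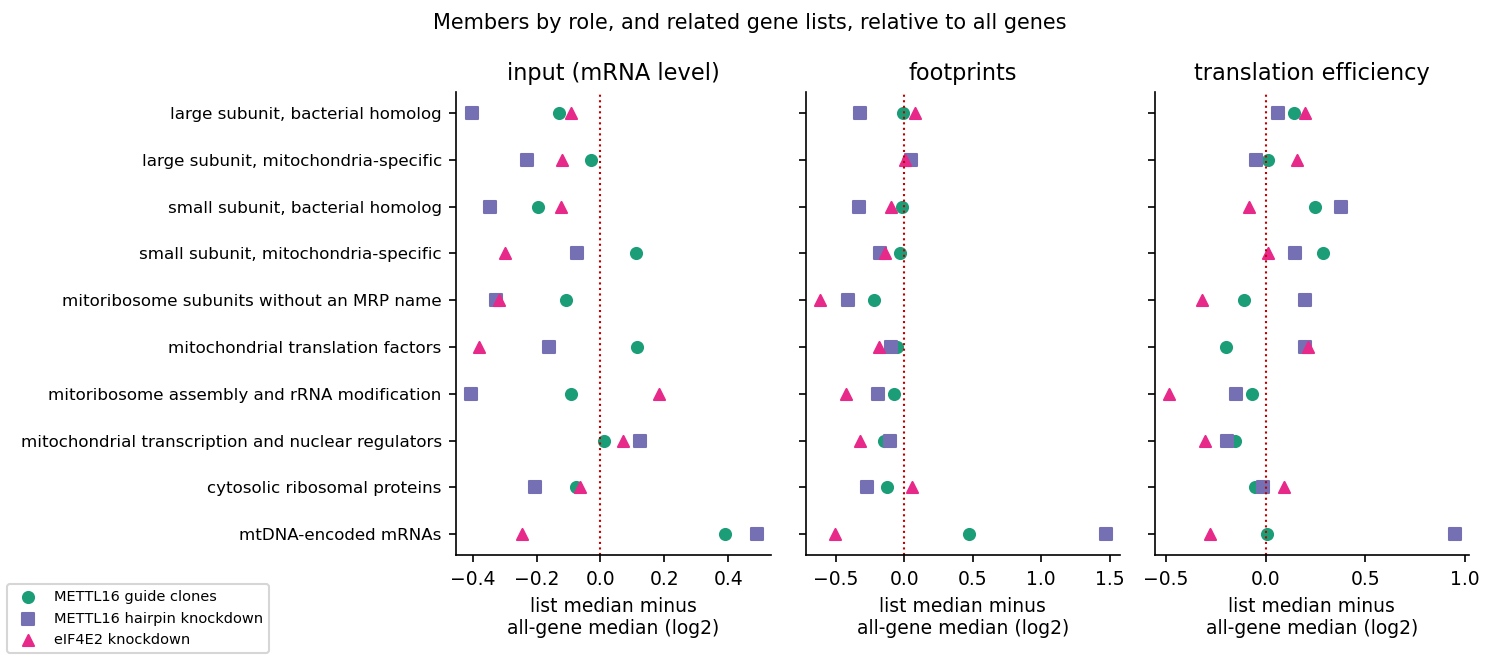
Median log2 change of each role group of members, and of related gene lists, minus the all-gene median, for input, footprints and TE. Green circles are the METTL16 guide clones, purple squares the METTL16 hairpin and pink triangles the eIF4E2 knockdown; in input the squares of 3 of the 4 member groups lie at or below -0.23, and the mtDNA-encoded mRNAs stand at 0.49.

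The eIF4E2 knockdown left the mitoribosomal group close to the other genes. The medians over the 75 of 77 members that passed the filter were -0.22 in input (all genes -0.10), 0.17 in footprints (all genes 0.20) and 0.42 in TE (all genes 0.32). No member passed an adjusted p of 0.05 (limma, Benjamini-Hochberg over 8597 genes, of which 1, 54 and 0 passed: 0.0116%, 0.628% and 0%). At an unadjusted p under 0.05 there were 8 members in input, 11 in footprints and 11 in TE, against 7.22%, 16.4% and 9.39% of all genes, and voom on recovered reads called 1, 0 and 0 members and 4.29%, 0.698% and 0% of all genes. With a pseudocount of 0.1, 1 member was called in footprints (1.33%), and 1.92% of all genes. In both replicates 40 of 75 members were lower in input (53.3%, all genes 46.0%) and 13 higher (17.3%, all genes 30.1%). In footprints 16 were lower (21.3%, all genes 22.6%) and 36 higher (48.0%, all genes 48.0%). In TE 11 were lower (14.7%, all genes 19.4%) and 46 higher (61.3%, all genes 52.8%). The lone control shscramble rep2 had the lowest footprint depth of all libraries (196995 reads), and COL1A1 was higher in both knockdown samples. The part of either in these values was not tested. The eIF4E2 and METTL16 hairpin tables have separate scrambled controls.

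Footprints of a few members came near the threshold. MRPL22, which lines the exit tunnel, had 1.80 TPM of footprints (3 reads) in shscramble rep2 and 8.81 (13 reads) and 14.6 (27 reads) in the knockdown. Both replicates were higher, by 2.14 log2 units (SE 0.43, limma adjusted p = 0.095, ratio 6.69, 2.13 to 33.8). In the 4 samples of the other tables except shM16-2, however, MRPL22 footprints stood at 10.7 to 17.9 TPM, so the control was the low library. MRPS26, a mitochondria-specific small-subunit protein, had footprints of 71.4 TPM (23 reads) in the control and 155 (44 reads) and 132 (47 reads) in the knockdown. Both were higher, by 0.99 log2 units (SE 0.20, limma adjusted p = 0.0917), with a ratio of 1.98 (1.25 to 3.29) and input of 296, 234 and 219 TPM. MRPL2, a homolog of the bacterial peptidyl-transferase-centre protein L2, overlaps KLC4. It had 5.81 TPM of footprints (4 reads) in the control and was listed at 0 in both replicates (log2 change -2.77, limma adjusted p = 0.0682). It passed the footprint filter through the control alone. Values of 0 in both replicates have no spread between them, so this p-value measures none in footprints and rests on 4 control reads. MRPL44, a protein with an RNase III fold, was higher in both replicates by 1.32 log2 units (SE 0.31, limma adjusted p = 0.119), and MRPL34 likewise by 1.67 (limma adjusted p = 0.096). The control footprint value of MRPL34 (4.14 TPM, 2 reads) was the lowest of its 8, and those of MRPS26 and MRPL44 (14.9 TPM) were the lowest apart from shM16-2. In the other direction MRPS18A footprints stood at 27.3 TPM in the control and 7.73 and 18.5 in the knockdown, lower in both by -1.12 log2 units (SE 0.51, limma adjusted p = 0.330). MRPS25 footprints stood at 10.6, 5.98 and 3.71 TPM, lower in both by -1.01 (SE 0.53, limma adjusted p = 0.399, ratio 0.446, 0.213 to 0.926).

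In input the lowest adjusted p belonged to MRPL58. It stood at 158 TPM in shscramble rep2 and at 78.0 and 78.3 in the knockdown, lower in both replicates by -1.004 log2 units (SE 0.21, limma adjusted p = 0.417, ratio 0.495, 0.348 to 0.708). Its footprints stood at 68.3, 77.3 and 84.7 TPM, and its TE was 1.25 log2 units higher in both (SE 0.30, limma adjusted p = 0.475). The scrambled control was the highest of all 8 MRPL58 input values. MRPL35 input stood at 33.7 TPM in the control and 9.41 and 17.2 in the knockdown, lower in both by -1.34 log2 units (SE 0.42, limma adjusted p = 0.559, ratio 0.395, 0.254 to 0.615), and the control was the highest of its 8 values. MRPS10 input stood at 38.2 TPM in the control, the highest of its 8 values, and 12.6 and 19.0 in the knockdown (log2 change -1.25, SE 0.50, limma adjusted p = 0.659, lower in both). MRPL49 input stood at 44.6 TPM in the control and 84.9 and 63.1 in the knockdown, higher in both by 0.70 (SE 0.30, limma adjusted p = 0.689). MRPL57, a mitochondria-specific protein of the large subunit with 5 named pseudogenes, went the opposite way. Its input stood at 26.9, 52.7 and 47.2 TPM, its footprints at 33.9, 17.6 and 24.2 TPM, and its TE was lower in both by -1.55 log2 units (SE 0.43, limma adjusted p = 0.475).

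**Figure D5:**
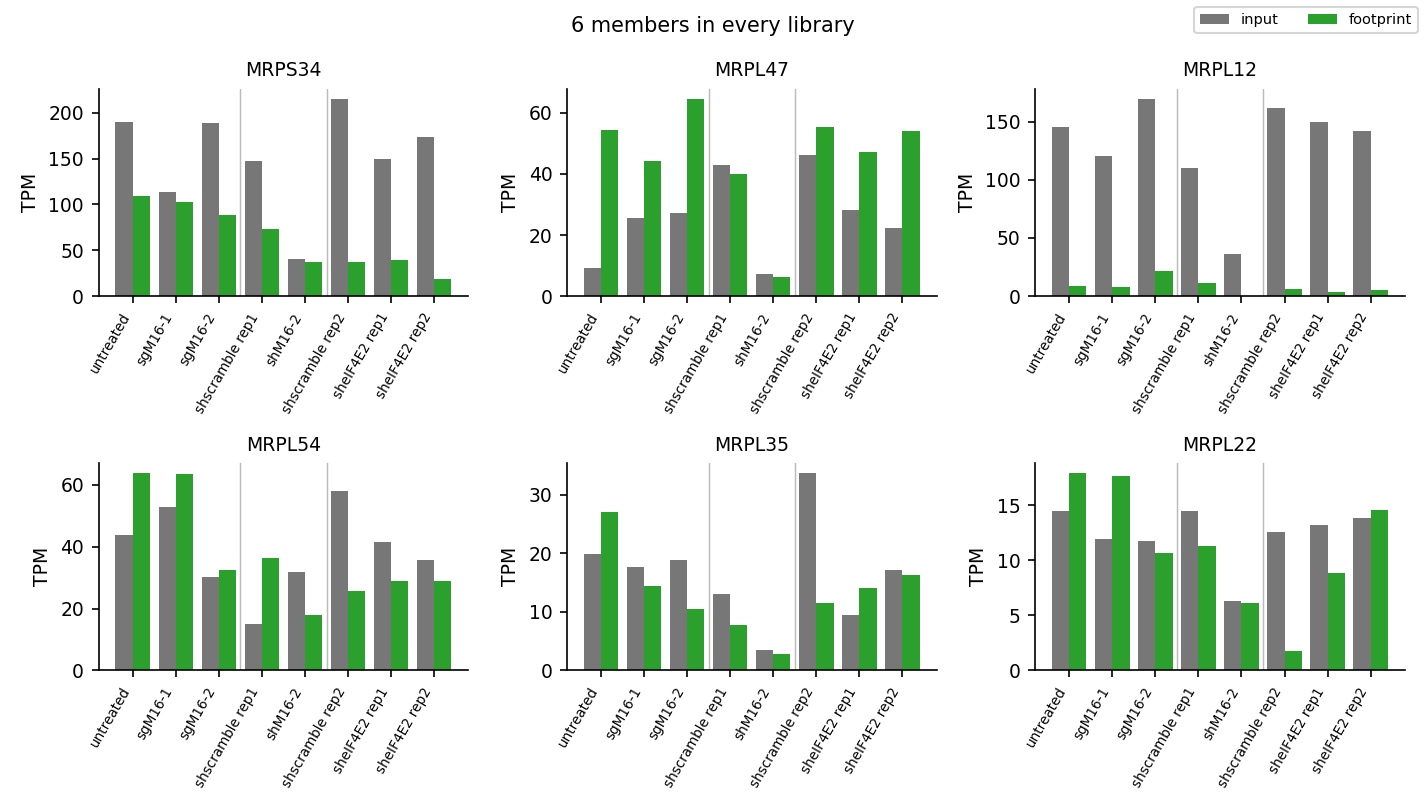
Input (grey bars) and footprint (green bars) TPM of 6 members in each of the 8 samples, on linear axes from 0, with vertical lines between the 3 tables. MRPL12 shows bars of input without matching footprints, MRPS34 and MRPL47 drop to 40.7 and 7.24 TPM of input in shM16-2, and the MRPL22 footprint bar of shscramble rep2 stands at 1.80 TPM.

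Related genes of mitochondrial translation were followed in the fitted comparisons, and 0 of the lists named here held a member past an adjusted p of 0.05 (limma). In the guide clones 9 of 15 translation factors stood higher in input in both clones (all genes 43.3%) and 0 lower (all genes 29.6%). The highest was MTIF2, an initiation factor, by 1.57 log2 units (SE 0.52, limma adjusted p = 0.364). MTERF3 of the assembly list stood 1.72 higher in both (SE 0.37, limma adjusted p = 0.223). In the eIF4E2 knockdown 10 of 13 translation factors were lower in input in both replicates (all genes 46.0%), with a relative median of -0.38. The assembly list had a relative median TE of -0.49 there, and 10 of its 24 genes were lower in both (all genes 19.4%). The mtDNA-encoded mRNAs stood 0.47 above the all-gene median in footprints of the guide clones and -0.51 relative to it in the eIF4E2 knockdown. In both cases this was away from the mitoribosomal members, whose relative footprint medians were -0.0060 and -0.030. Input of the mtDNA-encoded mRNAs moved the same way as their footprints, with relative medians of 0.39 in the clones and -0.25 in the knockdown. Their relative TE medians were 0.0062 and -0.28.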

How the data were processed

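The authors deposited TPM per gene in 3 tables, with input and footprint columns for each of 8 samples. Per the submitters' processing notes, the tools were STAR 2.7.5c, featureCounts 2.0.1, Bowtie2 2.2.5, Bowtie 1.3.0 and cutadapt 2.8, with GRCh38. For strand settings and gene lengths, values were not given in the sources used here. Per the labels' protocols, footprints were selected at 30 nt and input RNA at 40 to 60 nt. Members were matched by symbol. Members, role lists and tests were chosen with earlier results of these data known, and role groups follow textbook assignments.

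The test was limma 3.58.1 (R 4.3.3) on log2(TPM + 1), which understates changes of low genes. Group means were fitted over both assays of a table (the treated pair gives all 2 residual degrees of freedom), with a trend and two-sided p-values adjusted by Benjamini-Hochberg over every gene with a mean of at least 1 TPM in both assays. A lone control was assumed to vary like the treated pair, and p-values measure spread between clones or replicates. TE changes were footprint changes less input changes. The METTL16 hairpin has 1 library per arm and is given as values. Whole reads were recovered from TPM steps for 11892 of 11892 genes (relative tolerance 1e-10), up to a factor shared by the libraries of a gene, and ratios carry exact 95% Clopper-Pearson intervals for counting error only. Genes named were the 5 highest and 5 lowest in control input, the 3 highest and 3 lowest in control TE, the 2 highest and 2 lowest changes per comparison and assay with at least 20 reads, any member past the threshold, and 3 chosen for their role. The procedure was tested on simulated data. Tables were normalized separately, so levels set across them rest on the authors' scaling. Alternatives covered scaling, filters, pseudocount, controls, replicates left out, a replicate block and voom.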

Additional observations from a re-analysis of the deposited data

Results flagged for a closer look

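MRPL47 was flagged because its input stood more than 1 log2 unit from the all-gene median in opposite directions under the 2 ways of lowering METTL16. Relative to all genes it was 1.31 log2 units higher in the guide clones, in both of them, and stood at -2.09 in the METTL16 hairpin sample. The difference between the comparisons was not tested. The values rest on 5, 16 and 15 reads in the first table and on 20 and 6 in the second. The 2 controls stood far apart, at 9.28 TPM in untreated cells and 42.8 TPM in shscramble rep1, and the gene overlaps ACTL6A.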

How the results depend on the processing

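Of 68 counts of called members recomputed under alternatives, 66 stayed at 0. The exceptions, both in the eIF4E2 knockdown, were 1 member in input with voom on recovered reads, which called 4.29% of all genes (MRPL35, whose control input was the highest of its 8 values, adjusted p = 0.0224, where the lowest adjusted p ranged from 0.0224 to 0.845 over the alternatives) and 1 in footprints with a pseudocount of 0.1, which called 1.92% of all genes (MRPL2, adjusted p = 0.0350, range 0.0350 to 0.529). The MRPL2 call rests on 4 control reads against 0 in both replicates, which have no footprint spread between them. A replicate block for the sample left 0 members called in TE in both fitted comparisons, and both scrambled libraries as controls with a replicate block left 0 called in input, footprints and TE.

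The guide-clone results moved as follows. The count of members lower in both clones was 19 in footprints with median-of-ratios scaling and 18 with quantile normalization, and 19 in TE with median-of-ratios scaling. Leaving out a clone gave 38 to 42 lower in input and 42 to 54 in TE, counted in the remaining clone only. Shares of all genes were not computed under these settings, so these counts are not read as a result about the members. The relative TE median was 0.16 with a pseudocount of 0.1, 0.085 with quantile normalization and 0.071 to 0.098 without a clone.

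For the METTL16 hairpin the relative input median kept its sign, at -0.45 against shscramble rep2 alone (a control added after seeing the data) and -0.41 against both scrambled libraries. With at least 20 control reads in each assay, which 40 members had, 34 were lower in input, 40 in footprints and 37 in TE. This filter used the control library alone, which favours members counted high there by sampling error. The selection leans towards lower values in shM16-2, and no share of all genes was computed under it. Relative medians with this filter were taken against all genes without it. The relative footprint median was -0.28 against shscramble rep2, -0.36 against both, -0.34 with at least 20 reads, -0.15 with a pseudocount of 0.1, -0.32 without a filter, -0.052 at a mean of 5 TPM and -0.12 with median-of-ratios scaling and with quantile normalization. The relative TE median was 0.12 against shscramble rep2, 0.14 with a pseudocount of 0.1, -0.0060 without a filter, 0.18 at a mean of 5 TPM and with median-of-ratios scaling, and 0.19 with quantile normalization. Median-of-ratios scaling and quantile normalization left 42 and 43 members lower in footprints and 28 and 28 in TE. The share of all genes lower under these scalings was not computed, so these counts are not read as a result about the members. As deposited, shM16-2 was the lowest of 8 samples for 58 members in footprints (79.5%, all genes 64.5%) and 29 in TE (39.7%, all genes 34.2%). After the all-gene median of each library was subtracted, and without shscramble rep1, it was lowest for 17 in TE (23.3%, all genes 18.7%). The causes were not tested.

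In the eIF4E2 knockdown both scrambled libraries as controls gave relative medians of -0.00147 in input, 0.00892 in footprints and 0.038 in TE, with 21 members lower in input and 25 in TE. Against untreated cells the members' relative input was -0.27 in shscramble rep1, the library added here, and -0.042 in shscramble rep2. With at least 20 control reads in each assay (32 members) the relative medians were -0.16 in input and 0.16 in TE. Lower in input, footprints and TE were 23, 7 and 2 of these members. This filter too used the control library alone, which leans towards lower values in the knockdown. Its relative medians were taken against all genes without it. The relative footprint median was -0.011 at a mean of 5 TPM and -0.059 with median-of-ratios scaling. Median-of-ratios scaling and quantile normalization left 27 and 27 members lower in footprints and 21 and 18 in TE. Leaving out a replicate gave 24 to 31 lower in footprints and 18 to 22 in TE, counted in the remaining replicate only. The relative medians were then -0.073 to -0.038 and 0.053 to 0.10. For the counts of lower members under these alternatives no share of all genes was computed, so they are not read as a result about the members. Low footprint depth (16 to 20 reads for the median member in the third table) limits single members there.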
